A study of Mus musculus with 3 samples.

Results

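The genes described here encode the TGF-beta ligands (*Tgfb1*, *Tgfb2*, *Tgfb3*), their receptors (*Tgfbr1*, *Tgfbr2*, *Tgfbr3*) and the latent TGF-beta binding proteins (*Ltbp1*, *Ltbp2*, *Ltbp3*, *Ltbp4*) in single cells of the mouse iridocorneal angle and limbus. They were chosen by name, and all 10 were found among the 31053 genes counted. TGF-beta is secreted in an inactive form, held by its own propeptide. The latent binding proteins LTBP1, LTBP3 and LTBP4 attach to that propeptide and fix the complex to fibrillin microfibrils of the extracellular matrix, where integrins and other activators release the ligand, whereas LTBP2 is a microfibril protein that does not hold latent TGF-beta. Free ligand binds TGFBR2, which joins and phosphorylates TGFBR1, and SMAD2 and SMAD3 carry the signal to the nucleus, while TGFBR3 (betaglycan) is a co-receptor that presents ligand, TGF-beta2 above all. In the eye, TGF-beta2 is the ligand best known from aqueous humor and from its effect on the matrix of the trabecular meshwork (TM), and mutations of human *LTBP2* cause a form of congenital glaucoma.

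Cells came from 2 control libraries of Angpt1 flox/flox mice and from 1 library of Angpt1 flox/flox;Wnt1Cre+ mice (*Angpt1*ΔNC), which lose *Angpt1*, the ligand of the TEK receptor, in cells of neural crest descent. The floxed allele is thus shared by both groups, and Wnt1-Cre acts in the neural crest and not in endothelium. All mice were 6 weeks old and of mixed strain, bred for 2 generations onto albino ICR mice. Each library pooled the eyes of 2 to 3 animals, of both sexes by the paper's account. Libraries, not mice, are thus the replicates, and *Angpt1*ΔNC is represented by 1 of them. Cells that passed the authors' filters and doublet removal numbered 9076 and 10160 in the controls and 6772 in *Angpt1*ΔNC, each with 1 of 35 cluster labels. The summed counts of unique molecular identifiers (UMIs) of these cells ran from 66484181 to 80346829 per library, with medians of 6329.5 to 7444 UMIs per cell. *Angpt1* was found in 1562 and 1759 cells of the controls and in 23 cells of *Angpt1*ΔNC, although these tags are not said to cover the excised exon. The pools differed in sex. Of the cells, 69.7% and 72.1% were typed as male in the controls (a UMI of a Y-linked gene and none of *Xist*) against 29.4% in *Angpt1*ΔNC. A UMI of *Xist*, a transcript of female cells, was found in 0.0331% and 0.0197% of the control cells and in 58.7% of those of *Angpt1*ΔNC. The controls thus held almost no cells with this female marker, and sex and genotype can be told apart only within male-typed cells. Pairs of libraries shared 13 to 25 barcodes of kept cells, and only 1 per pair carried the same label in both.

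The labels are the authors' own: TM1 to TM11, SC (Schlemm's canal), LEC (lymphatic endothelium), EC2 to EC4 (blood endothelium) and numbered clusters. Each marker list was summed per label and taken as a percentage of its own highest label. A label is said to lead with the list of highest percentage, which need not be the list of highest level there. TM4 held the highest summed level of the trabecular meshwork list, and TM7 also led with it. TM2, TM3, TM5 and TM8 led with corneal endothelial genes and TM1, TM6, TM9, TM10 and TM11 with keratocyte genes. The paper reads TM5, as it does TM4, as putative trabecular meshwork cells, and the leading percentage of TM5 was 59.8%. The leading percentage was low in some labels, at 27.6% in TM7 and 10.8% in TM8, and such a label is not identified by its list. SC and the EC labels led with endothelial genes, clusters 4 and 5 with limbal and corneal epithelial genes, clusters 19 and 21 with smooth muscle, cluster 20 with pericyte, clusters 22 to 25 with immune, cluster 7 with ciliary epithelial and clusters 13, 17 and 18 with keratocyte genes. A level below is the mean over the cells of a label of a gene's UMIs per 10,000 UMIs of the cell. Levels are compared between labels and libraries and never between genes. Since the labels were made from the expression of the same cells, and 5 members (*Tgfb2*, *Tgfb3*, *Ltbp1*, *Ltbp2*, *Ltbp4*) were among the 3467 genes of the integrated table behind them, differences between labels are given as a description, with no test. Orders use the 34 labels with at least 20 cells in each control. LEC, with 3, 1 and 12 cells in control 1, control 2 and *Angpt1*ΔNC, stays out of them.

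**Figure D1:**
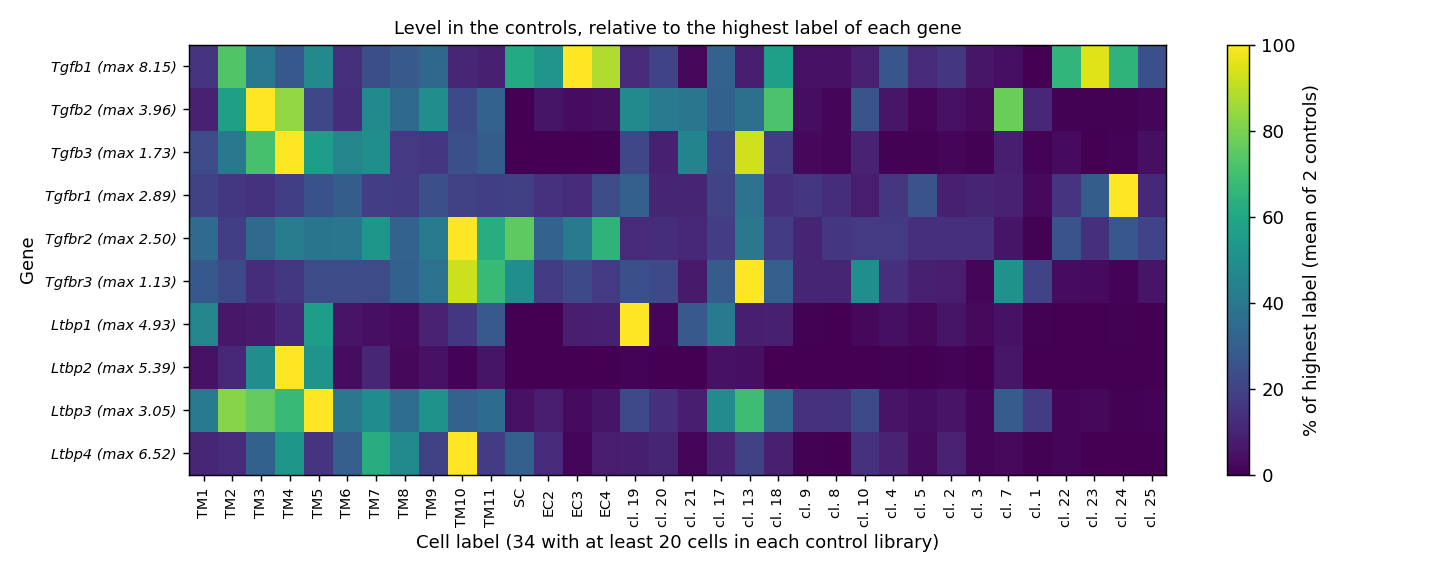
Level of each gene (rows) in 34 cell labels (columns) as a percentage of its own highest label, from the mean of the 2 control libraries; the highest level, in UMIs per 10,000, stands beside each name. The ligands peaked in different labels, *Tgfb1* in EC3, *Tgfb2* in TM3 and *Tgfb3* in TM4, and *Ltbp2* was highest in TM4, TM5 and TM3.

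The 3 ligands had separate patterns. *Tgfb1* was highest in EC3 with 8.24 and 8.07 UMIs per 10,000 in the controls (mean 8.15 ± 0.12 SD, n = 2) and 5.02 in *Angpt1*ΔNC. In the dendritic-like cluster 23 its level was 7.76 and 7.74 in the controls and 3.78 in *Angpt1*ΔNC, and in EC4 it was 7.44, 6.93 and 5.22. TM2 held the highest stromal level, with 6.06, 5.83 and 4.89. The *Angpt1*ΔNC library was below both controls in each of these labels. Over the 34 labels it was below both in 15 and above both in 11. In SC the 2 controls lay far apart, at 6.34 and 3.60, and the 15 SC cells of *Angpt1*ΔNC stood at 2.41. Both controls reached a level of 1 or more in 22 of 34 labels, and the lowest level was that of cluster 1, which led with genes of the retinal pigment epithelium. Neighbours in the order of labels overlapped in their control ranges in 23 of 33 cases.

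*Tgfb2* was a stromal, mural and ciliary epithelial transcript. TM3 had 3.52 and 4.39 UMIs per 10,000 in the controls and 3.00 in *Angpt1*ΔNC, TM4 had 3.01, 3.63 and 2.09, and the ciliary cluster 7 had 3.18, 2.95 and 3.40. The ranges of these labels overlapped, as did 30 of 33 neighbours in the order. SC was at the other end. None of the 46 SC cells of control 1 had a *Tgfb2* UMI (exact 95% interval of the share 0 to 7.71%), 1 of 63 had one in control 2 and 2 of 15 in *Angpt1*ΔNC. In the macrophage-like cluster 24, 0.971% and 1.52% of the control cells and 0.998% of the *Angpt1*ΔNC cells had a UMI, with medians of 6554 to 6903 UMIs per cell against 6505 to 8895 in SC. The *Tgfb2* share of SC in the controls was thus not distinguishable from that background. Intervals cover counting error only.

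*Tgfb3* was highest in TM4, with 2.01 and 1.45 in the controls and 1.82 in *Angpt1*ΔNC, and in cluster 13, with 1.84, 1.37 and 2.02. These 2 labels overlapped. TM3 followed with 1.24, 1.22 and 1.33. It was under 0.1 in both controls in 14 of 34 labels, EC3 (0 and 0.0061) and the epithelial clusters among them.

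The sequences upstream of the annotated starts of *Tgfb1* and *Tgfb2* are shown because they differ in base composition and in these motifs. Each holds the 250 bases before the start in RefSeq on GRCm38.p6, chr7:25686752-25687001 on the plus strand for *Tgfb1* and chr1:186705990-186706239 on the minus strand for *Tgfb2*. Capitals mark matches on either strand to the GC box GGGCGG or the TATA box TATAAA.
Tgfb1: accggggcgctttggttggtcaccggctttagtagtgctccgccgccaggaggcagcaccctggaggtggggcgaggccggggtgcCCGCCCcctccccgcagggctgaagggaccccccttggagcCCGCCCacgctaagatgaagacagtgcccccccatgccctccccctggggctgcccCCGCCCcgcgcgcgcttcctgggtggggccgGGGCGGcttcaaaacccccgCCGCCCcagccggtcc
Tgfb2: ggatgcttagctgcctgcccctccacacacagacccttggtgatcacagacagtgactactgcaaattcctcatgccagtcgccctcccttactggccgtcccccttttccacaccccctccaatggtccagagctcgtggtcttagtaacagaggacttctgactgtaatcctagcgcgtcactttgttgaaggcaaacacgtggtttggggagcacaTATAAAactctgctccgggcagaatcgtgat
The *Tgfb1* window is 75.2% G and C and holds 5 GC boxes and no TATA box, and that of *Tgfb2* is 53.6% G and C and holds 1 TATA box and no GC box. Over all 32851 promoter windows of this length the median was 52.4% G and C, a GC box was found in 32.7% and a TATA box in 12.4%. A match is a description of letters and not a binding site. Promoter windows were found for 8 of the 10 genes, without *Tgfb3* and *Tgfbr3*.

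The receptors peaked in immune and stromal labels. *Tgfbr1*, the signaling kinase, was highest in the macrophage-like cluster 24, with 2.82 and 2.96 UMIs per 10,000 in the controls and 2.51 in *Angpt1*ΔNC. The next label, cluster 13, had 1.00, 1.16 and 1.64, so that cluster 24 was the only one of 34 above 50% of the highest control mean. *Tgfbr2*, the ligand-binding kinase, was highest in TM10 with 2.62, 2.37 and 2.56. SC came next with 1.87 and 1.89 in the controls and 1.21 in *Angpt1*ΔNC, then EC4 with 1.68, 1.56 and 1.54 and TM11 with 1.62, 1.49 and 1.75. SC exceeded EC4 beyond the spread of the controls and EC4 overlapped TM11. In SC, 67.4% and 73.0% of the control cells and 66.7% of the *Angpt1*ΔNC cells had a *Tgfbr2* UMI. *Tgfbr3* was highest in cluster 13, with 1.22, 1.04 and 0.61, and in TM10, with 1.04, 1.05 and 1.38, which overlapped, and SC had 0.56, 0.57 and 0.57. *Tgfbr1* in SC was 0.502, 0.602 and 1.33, so that transcripts of all 3 receptors were counted in the canal.

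**Figure D2:**
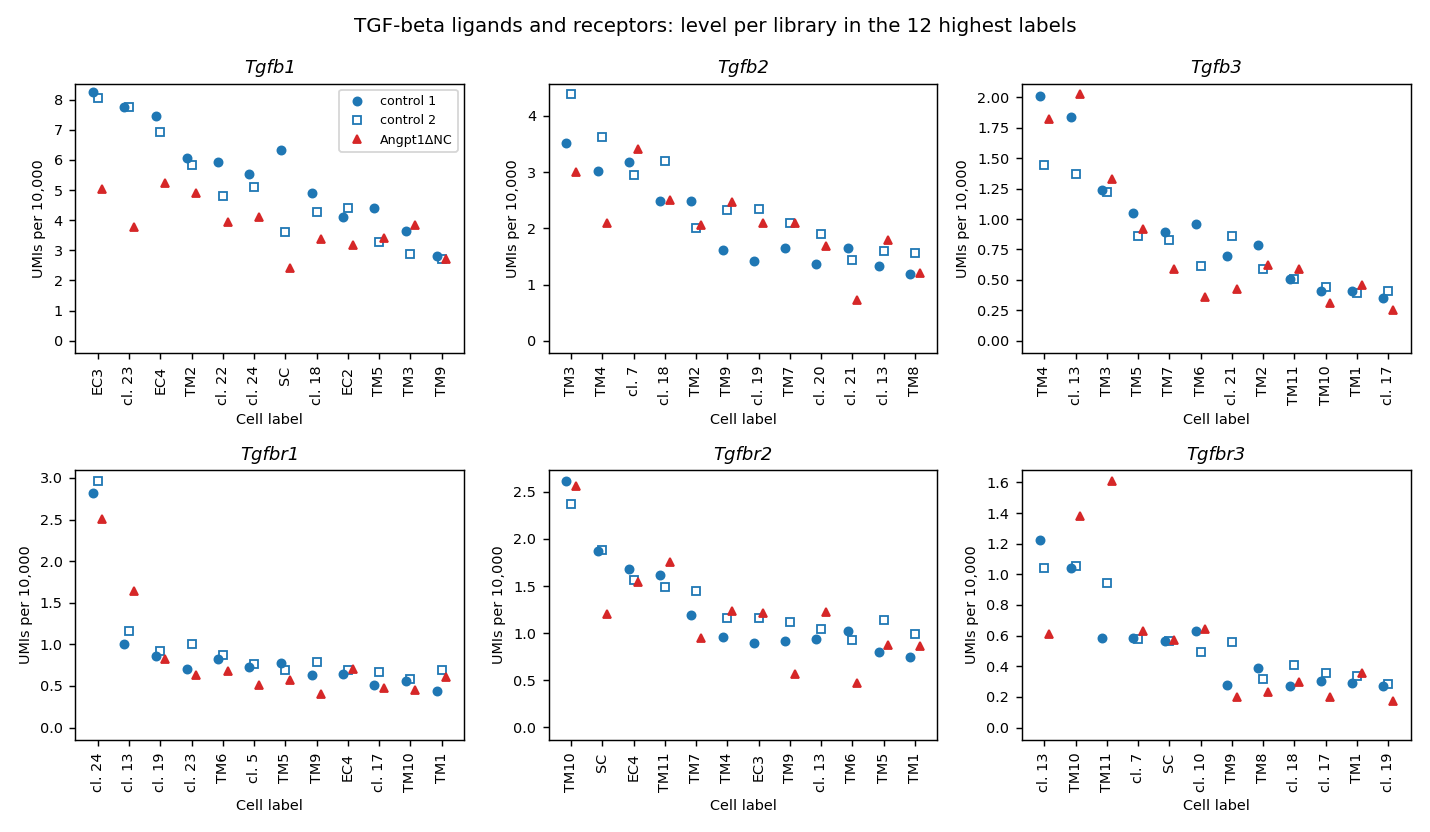
Level (UMIs per 10,000, y axis) of the ligands and receptors in the 12 labels with the highest control mean (x axis, in order), as 1 point per library: control 1 (filled circle), control 2 (open square) and *Angpt1*ΔNC (triangle). *Tgfb1* of *Angpt1*ΔNC lies below both controls in the 9 highest labels. Over all 34 labels, of which 12 are drawn, it is below both in 15 and above both in 11. *Tgfbr1* stands alone in cluster 24.

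The latent binding proteins had their highest levels in different labels and overlapped in several. *Ltbp1* was highest in the smooth muscle-like cluster 19, with 4.53 and 5.33 UMIs per 10,000 in the controls and 5.76 in *Angpt1*ΔNC. TM5 followed with 1.79, 3.70 and 2.29, TM1 with 1.98, 2.5 and 2.74, and cluster 17 with 2.14, 1.93 and 0.72. Cluster 19 exceeded TM5 beyond the spread of the controls, and TM5, TM1 and cluster 17 overlapped in turn. *Ltbp2* was low in most labels. TM4 had 5.30, 5.48 and 3.67, TM5 had 3.42, 2.16 and 2.06 and TM3 had 2.71, 2.58 and 1.41, and no other label reached 1 in both controls. Both controls were under 0.1 in 21 of 34 labels, and no *Ltbp2* UMI was counted in the SC and EC2 cells of any library. Stromal labels held 90.8% and 93.5% of all *Ltbp2* UMIs in the controls and 93.6% in *Angpt1*ΔNC.

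*Ltbp3* was shared by TM5 (3.16 and 2.94 in the controls and 2.57 in *Angpt1*ΔNC), TM2 (2.31, 2.67 and 2.38), TM3 (2.35, 2.27 and 2.00) and cluster 13 (2.05, 2.15 and 1.63). TM4 had 1.90, 2.24 and 2.52 and overlapped cluster 13. *Ltbp3* reached 1 in both controls in 10 labels. *Ltbp4*, which also acts in elastic fiber assembly, was highest in TM10 with 6.23, 6.80 and 5.18, then in TM7 with 3.52, 4.60 and 4.89 and in TM4 with 2.98, 3.93 and 3.28. In SC its level was 2.12, 1.86 and 2.59, and 73.9%, 61.9% and 86.7% of the cells had a UMI, against 0%, 1.37% and 0.998% in cluster 24. *Ltbp3* was counted in 6 of 46, 7 of 63 and 1 of 15 SC cells, and *Ltbp1* in none, 1 and none.

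**Figure D3:**
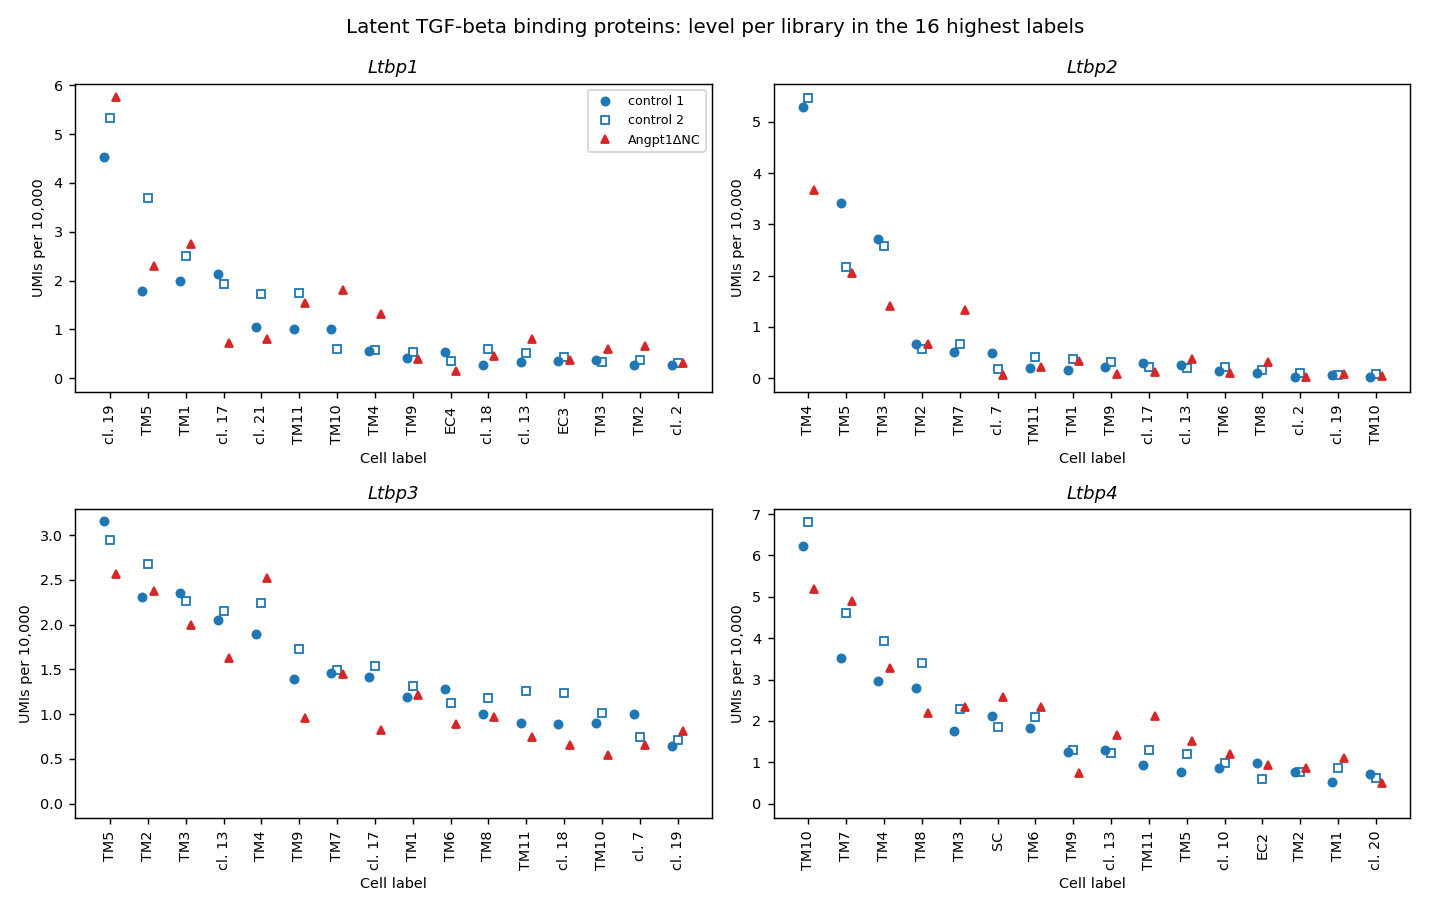
Level (UMIs per 10,000, y axis) of the 4 latent TGF-beta binding proteins in the 16 labels with the highest control mean (x axis, in order), as 1 point per library: control 1 (filled circle), control 2 (open square) and *Angpt1*ΔNC (triangle). *Ltbp1* of *Angpt1*ΔNC lies above both controls in TM10 and TM4 and below them in cluster 17, and *Ltbp2* drops to under 1 after TM4, TM5 and TM3 except in TM7 of *Angpt1*ΔNC.

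*Ltbp1* has 2 annotated starts on chromosome 17, known to give a long and a short form, and the counts per gene cannot tell them apart. Both upstream windows (chr17:75005279-75005528 and chr17:75178531-75178780, plus strand, GRCm38.p6) are shown because *Ltbp1* was the only member called in both directions in sums over cell classes. It was called higher in stromal and lower in endothelial and mural cells, and these calls were lost in some settings, as given below.
Ltbp1, first start: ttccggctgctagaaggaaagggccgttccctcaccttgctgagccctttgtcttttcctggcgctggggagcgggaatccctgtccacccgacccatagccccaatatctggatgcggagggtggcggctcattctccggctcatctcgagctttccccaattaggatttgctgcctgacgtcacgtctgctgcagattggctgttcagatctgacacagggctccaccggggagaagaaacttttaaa
Ltbp1, second start: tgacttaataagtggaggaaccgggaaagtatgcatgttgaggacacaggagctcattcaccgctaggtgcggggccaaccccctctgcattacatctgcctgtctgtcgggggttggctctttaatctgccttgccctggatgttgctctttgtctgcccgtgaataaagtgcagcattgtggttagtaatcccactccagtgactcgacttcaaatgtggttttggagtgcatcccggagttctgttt
The windows are 56.8% and 50.8% G and C. Neither holds a GC box, a TATA box, the AP-1 site TGACTCA, the SMAD element GTCTAGAC or a CArG box on either strand, so no letters are in capitals. Over all windows the last 3 were found in 4.46%, 0.167% and 1.47%. By annotation (GENCODE M21, GRCm38) *Ltbp1* spans chr17:75005568-75392512. Genes annotated on the opposite strand overlap *Ltbp2*, *Ltbp3*, *Tgfb2*, *Tgfb3* and *Tgfbr3*, and other gene models (*Gm6276*, and *Gm42900*, *Gm43422* and *Gm43423*) overlap *Ltbp1* and *Tgfbr3* on the same strand. No gene overlaps *Ltbp4*, *Tgfb1*, *Tgfbr1* or *Tgfbr2*.

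Across the 35 labels, the pattern most like that of each member was sought by Pearson's r of log2(level + 0.1) in the mean of the controls, over 6860 genes. These values are descriptions, and the labels share libraries and depth. LEC, with 3 and 1 cells in the controls, is among the 35 and has the same weight as any other label. Its *Ltbp4* level, for 1, was 13.2 and 6.62 in the controls, on 7 and 9 UMIs. *Ltbp2* was closest to *Nell2* (r = 0.94), a gene of the trabecular meshwork list, *2010300F17Rik* (0.90) and *Hs6st2* (0.88). *Ltbp3* was closest to *Ikbip* (0.93), *Vasn* (0.90) and *Tenm3* (0.90), and *Tgfb3* to *Prelp* (0.89), *Rcn3* (0.88) and *Tenm3* (0.88). *Tgfb2* came nearest to *Numbl*, *Nectin3* and *Map1lc3a* (all 0.89), and *Ltbp4* to *Lbp* (0.88), *Flrt2* (0.81) and *Nsg1* (0.81). The others were less alike to any gene: *Ltbp1* with *Arl4d* (0.81), *Adgrl1* (0.79) and *Gpc4* (0.78), *Tgfbr3* with *Arhgef40* (0.80), *Tnxb* (0.78) and *Serpinh1* (0.75), *Tgfb1* with *Shisa5* (0.78), *Fli1* (0.77) and *Ptbp3* (0.77), *Tgfbr2* with *Rrbp1*, *Akap13* (both 0.75) and *Cd34* (0.74), and *Tgfbr1* with *Gm17056* (0.66), *Mfsd1* (0.65) and *Pid1* (0.64). Among the members the highest r was that of *Tgfb3* with *Ltbp3* (0.84), followed by *Tgfb2* with *Ltbp3* (0.77), and the lowest was that of *Tgfb1* with *Tgfb2* (-0.20).

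Which of these genes differ when the neural crest lacks *Angpt1* was tested on counts summed per library over 6 classes: stromal (TM1 to TM11), endothelial (SC, LEC, EC2 to EC4), epithelial (clusters 4 and 5), mural (clusters 19 to 21), immune (clusters 22 to 25) and cluster 17. The test was edgeR's quasi-likelihood test over all genes of a class, with Benjamini-Hochberg adjusted p under 0.05. With 2 libraries against 1 only 1 residual degree of freedom is left, and the spread of the *Angpt1*ΔNC group is taken to be that of the controls. Most of the family did not pass. Of 55 pairs of member and class that passed the filter on low counts, 5 were called (9.09%), against 8.03% of all genes and classes, so the family as a whole was called about as often as other genes. The calls fell on *Ltbp1* and *Ltbp4* alone, and no ligand or receptor was called in any class.

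*Ltbp1* was called in different directions in the class sums. In stromal cells it was higher in *Angpt1*ΔNC, with 1.06 UMIs per 10,000 against 0.445 and 0.563 in the controls (log2 fold change 0.80 ± 0.18 SE, edgeR adjusted p = 0.0285). In that class 3.46% of the 13942 genes tested were called higher. With equal weight for each stromal label the value was 0.38 and not called (edgeR adjusted p = 0.112), and without control 2 or control 1 it was 1.01 or 0.62. The make-up of the class differed as well: TM7, with low *Ltbp1*, was 23.8% and 22.2% of the stromal cells of the controls and 8.94% of those of *Angpt1*ΔNC, and TM8 was 21.1%, 18.4% and 7.97%. In endothelial cells it was lower, with 0.163 against 0.307 and 0.274 (-0.94 ± 0.29, edgeR adjusted p = 0.0282, where 4.82% were called lower), on 26 UMIs against 78 and 94. This call was lost with DESeq2 (adjusted p = 0.962), with equal weight for each label and in male-typed cells. The mural value was lower too, with 1.08 against 1.92 and 2.53 (-0.69 ± 0.19, edgeR adjusted p = 0.0172, where 7.23% were called lower). That fall came with a change in the make-up of the class: cluster 19, which held 91.0% and 91.3% of the mural *Ltbp1* UMIs in the controls, was 37.4% and 42.1% of the mural cells there and 15.7% in *Angpt1*ΔNC. Within cluster 19 the level was not lower (log2 fold change 0.21, edgeR adjusted p = 0.628), and with equal weight for the 3 clusters the mural value was 0.06. The mural call was also lost with DESeq2 (adjusted p = 0.0767), and without control 2 the value was -0.44. In cluster 17 it stood at 0.718 against 2.14 and 1.93 (-1.27 ± 0.16), which missed the threshold with an edgeR adjusted p of 0.0712 and passed with DESeq2 (adjusted p = 0.0015) and in male-typed cells (-1.65, adjusted p = 3.2e-05 by edgeR). In the immune class *Ltbp1* did not pass the filter on low counts.

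*Ltbp4* was called higher in *Angpt1*ΔNC in the endothelial and epithelial classes, both of which differed in make-up between libraries. Cluster 4 held 414 and 507 cells in the controls and 641 in *Angpt1*ΔNC, and cluster 5 held 575, 505 and 270. The *Ltbp4* level was 0.550, 0.691 and 0.827 in cluster 4 and 0.191, 0.213 and 0.406 in cluster 5. The epithelial class value thus carries this change in make-up. In endothelial cells it had 1.65 UMIs per 10,000 against 0.793 and 0.653 in the controls (log2 fold change 1.31 ± 0.17, edgeR adjusted p = 3.6e-07, where 8.12% of the 9660 genes tested were called higher). SC cells gave 64.8% and 69.9% of the endothelial *Ltbp4* UMIs in the controls and 14.6% in *Angpt1*ΔNC, where 12 LEC cells gave 38.2%. In blood endothelium alone (EC2 to EC4) the value was 1.91 (edgeR adjusted p = 0.00025), whereas with equal weight for each label it was 0.47 and not called (adjusted p = 0.713). In the epithelium *Ltbp4* had 0.702 against 0.341 and 0.452 (1.11 ± 0.21, edgeR adjusted p = 0.0262, where 2.81% of the 12341 genes tested were called higher), and with equal weight for clusters 4 and 5 it was not called. In stromal cells, the main site of *Ltbp4*, it was 2.33 against 2.59 and 2.97 and did not pass (-0.14 ± 0.17, edgeR adjusted p = 0.651). It was not called in the mural (0.41, edgeR adjusted p = 0.15) and immune (0.75, 0.583) classes or in cluster 17 (0.02, 0.975). Higher *Ltbp4* levels in *Angpt1*ΔNC were not limited to endothelium and epithelium. Its level lay above both controls in 24 of 34 labels and below both in 6. Of the 25 labels where it was fitted alone, 76% had a positive fold change.

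None of the ligands and receptors passed the threshold in these sums. Stromal *Tgfb2* had 1.79 UMIs per 10,000 in *Angpt1*ΔNC against 1.72 and 2.11 (-0.15 ± 0.18, edgeR adjusted p = 0.659). Endothelial *Tgfb1* had 4.62 against 7.18 and 6.41, below both controls (-0.31 ± 0.16, edgeR adjusted p = 0.227), and immune *Tgfb1* had 3.80 against 5.57 and 5.13 (-0.45 ± 0.18, edgeR adjusted p = 0.232). The fit uses summed counts, in which deep cells weigh more, so its fold change differs from the ratio of the mean levels. Epithelial *Tgfbr1* had 0.369 against 0.623 and 0.607 (-0.55 ± 0.16, edgeR adjusted p = 0.0901). At an unadjusted p under 0.05, 16 of the 55 pairs passed by edgeR, against 23.7% of all genes and classes, among them 2 of 7 members tested in the immune class and 3 of 10 in cluster 17, and DESeq2 called none and 1 of them by its adjusted p.

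**Figure D4:**
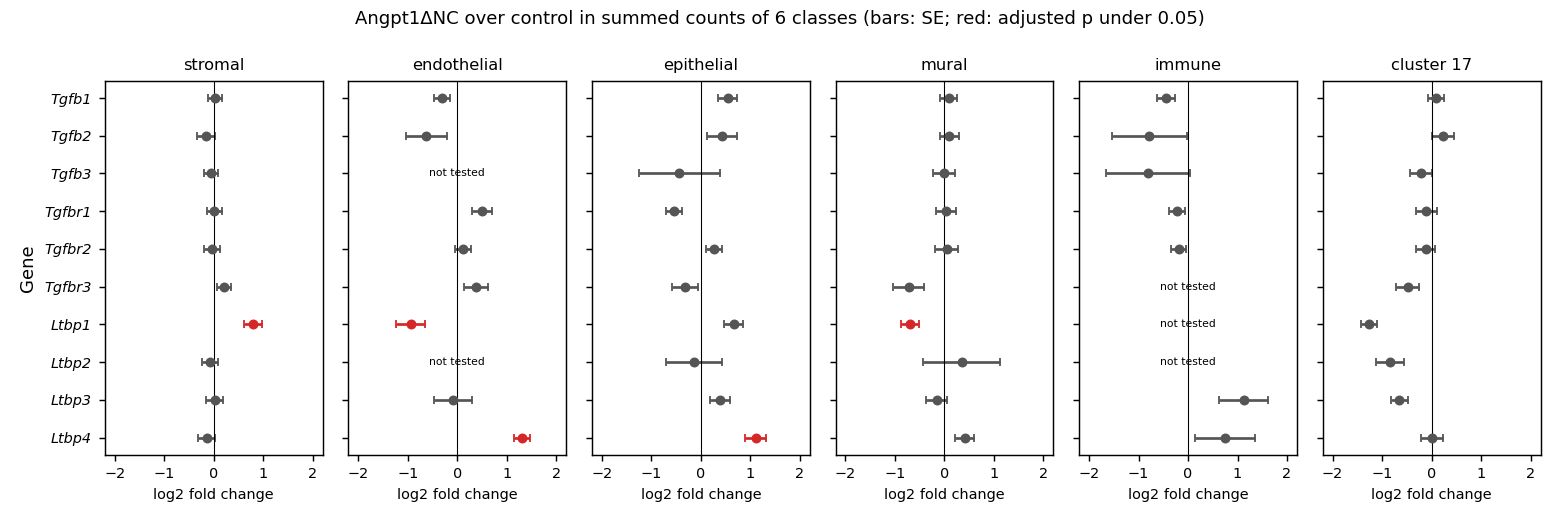
Log2 fold change of *Angpt1*ΔNC over control (x axis) for each gene (y axis) in the summed counts of 6 classes; points are edgeR estimates with SE, red where the adjusted p is under 0.05, and "not tested" marks genes that did not pass the filter. The 5 red points are *Ltbp1* in the stromal, endothelial and mural classes and *Ltbp4* in the endothelial and epithelial classes.

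Whether the effect differs between classes was tested with a class by genotype term against the stromal class. The make-up of that class, and of the endothelial, epithelial and mural classes, differed between libraries. For *Ltbp1* the effect was lower than the stromal one by 1.77 on the log2 scale in endothelial cells (-1.77 ± 0.38 SE, edgeR adjusted p = 0.0173, where 3.55% of genes were called), by 1.56 in mural cells (-1.56 ± 0.23, adjusted p = 0.0014, edgeR, 4.16%) and by 2.09 in cluster 17 (-2.09 ± 0.23, adjusted p = 0.00027, edgeR, 2%). For *Ltbp4* it was higher by 1.42 in endothelial cells (± 0.22, edgeR adjusted p = 0.0019) and by 1.22 in the epithelium (± 0.20, edgeR adjusted p = 0.002, 5.28%). *Tgfbr1* differed in the epithelium (-0.61 ± 0.16, edgeR adjusted p = 0.0432). No member was called in the immune class, where 1.1% of genes were.

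The 29 labels with at least 50 cells in each library were then fitted 1 by 1, a choice made after seeing the class sums. Of 242 pairs of member and label, 19 were called (7.85%), 9 higher and 10 lower, against 5.05% of all genes and labels. *Ltbp1* was called higher in 3 stromal labels and lower in none. In TM7, where 2.53% of the genes tested were called higher, its level was 0.188 and 0.235 in the controls and 0.940 in *Angpt1*ΔNC (log2 fold change 2.15 ± 0.21, edgeR adjusted p = 0.0017). In TM4 it was 0.559, 0.573 and 1.31 (1.24 ± 0.19, edgeR adjusted p = 0.00056, 2.86% called higher), with a UMI in 31.5%, 34.2% and 63.0% of the cells, and in 11.4%, 10.3% and 22.1% at an equal depth of 2000 UMIs per cell. TM10 had 1.00, 0.587 and 1.80 (1.09 ± 0.22, edgeR adjusted p = 4.8e-05, 5.76% called higher). The 3 labels thus lay above both controls, with the TM10 controls farther apart than the others. In male-typed cells *Ltbp1* was called in TM4 (1.16) and TM10 (1.28) and not in TM7 (1.28 ± 0.45, edgeR adjusted p = 0.119), where 18.4% of the *Angpt1*ΔNC cells were typed as male. DESeq2 called it in TM4 and TM7. In TM5 and TM6 the fold change was below 0 (-0.42 in each) and not called.

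Marker lists moved in these labels as well. The summed level of the 5 trabecular meshwork markers was 29.9 and 40.8 in TM7 of the controls and 10.4 in *Angpt1*ΔNC, and 127 and 129 against 58.9 in TM4. The 5 keratocyte markers had 101 and 111 against 163 in TM7, and 199 and 228 against 395 in TM4. In TM10 the same lists had 10.5 and 10.3 against 5.10, and 152 and 159 against 176. Every marker of both lists was detected in these 3 labels in each library. The part of these shifts in the *Ltbp1* values was not tested.

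*Ltbp2* was called higher in TM7, with 0.506 and 0.666 in the controls and 1.32 in *Angpt1*ΔNC (1.22 ± 0.24, edgeR adjusted p = 0.0232), and lower in TM3, with 2.71, 2.58 and 1.41 (-0.73 ± 0.22, edgeR adjusted p = 0.0184, 4.26% called lower). In TM4, its main label, it was 5.30, 5.48 and 3.67, below both controls, and missed the threshold (-0.48 ± 0.20, edgeR adjusted p = 0.197). *Ltbp3* was called lower in TM10 (0.898, 1.01 and 0.541, -0.86 ± 0.25, edgeR adjusted p = 0.0102, 5.81% called lower). DESeq2 called none of these 3 (adjusted p = 0.057 in TM7, 0.388 in TM3 and 0.863 in TM10). Male-typed cells gave the calls in TM7 and TM10 and not in TM3 (-0.45, edgeR adjusted p = 0.443).

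TM9 stood apart, since 6 members were called there and all were lower in *Angpt1*ΔNC: *Tgfb3* (0.220, 0.325 and 0.111), *Tgfbr1* (0.632, 0.790 and 0.401), *Tgfbr2* (0.922, 1.12 and 0.562), *Tgfbr3* (0.280, 0.561 and 0.196), *Ltbp2* (0.214, 0.311 and 0.0784) and *Ltbp4* (1.25, 1.31 and 0.737). Their log2 fold changes ran from -1.88 for *Ltbp2* (edgeR adjusted p = 1.0e-04) to -0.72 for *Tgfbr1* (edgeR adjusted p = 0.0389). Counts were low for *Ltbp2*, with 24, 50 and 15 UMIs, and for *Tgfb3*, with 25, 46 and 22. *Tgfb1*, *Tgfb2*, *Ltbp1* and *Ltbp3* were not called there. TM9 was also the label with the highest share of calls among the 29, with 15.1% of 8595 genes called and 7.92% called lower. Its trabecular meshwork markers summed to 1.26 and 2.41 in the controls and 0.0784 in *Angpt1*ΔNC, where 2 of the 5 were at 0, its endothelial markers to 3.05, 3.20 and 1.53, and its keratocyte markers to 105, 111 and 151. Their part in the calls was not tested. DESeq2 called none of the 6, and male-typed cells *Tgfb3* and *Tgfbr2*.

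**Figure D5:**
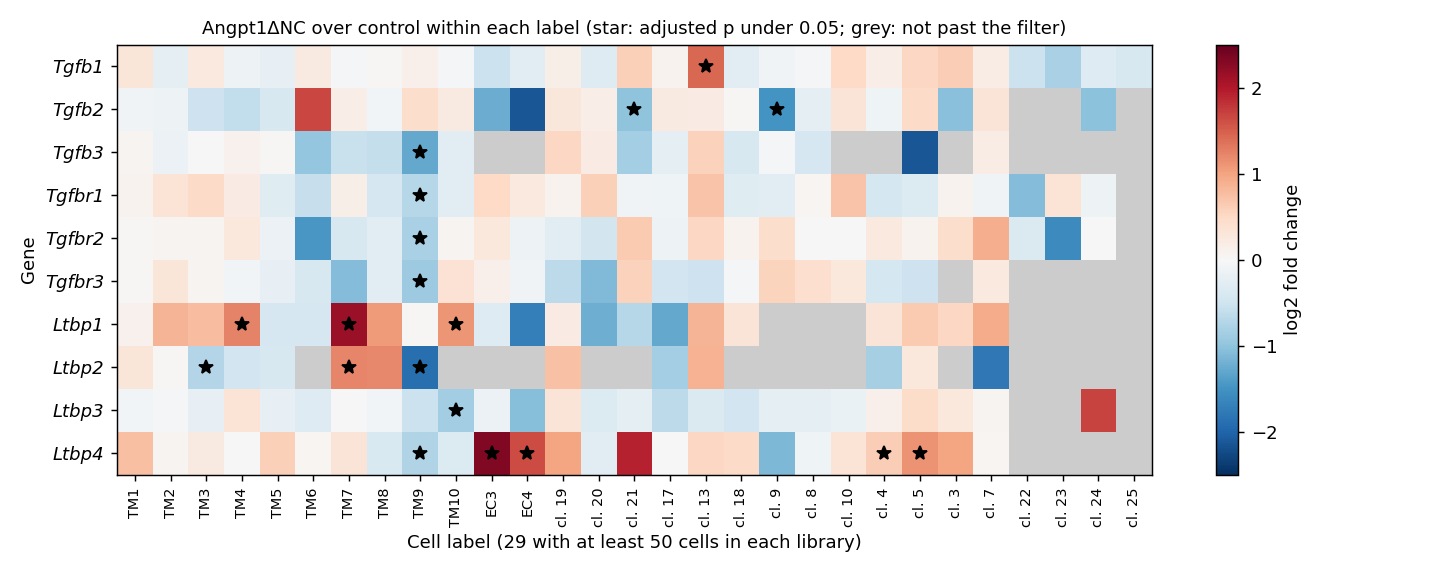
Log2 fold change of *Angpt1*ΔNC over control (color) for each gene (rows) within each of the 29 labels fitted singly (columns); stars mark an edgeR adjusted p under 0.05 and grey marks genes that did not pass the filter. *Ltbp4* is starred in EC3, EC4 and clusters 4 and 5, *Ltbp1* in TM4, TM7 and TM10, and 6 genes are starred in TM9.

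*Ltbp4* was called higher in both blood endothelial labels that could be fitted. In EC3 it was 0.073 and 0.139 in the controls and 0.734 in *Angpt1*ΔNC (log2 fold change 2.32 ± 0.45, edgeR adjusted p = 0.00051, 4.85% called higher), on 9, 17 and 24 UMIs, with 5.93%, 11% and 24.1% of cells positive. At an equal depth of 2000 UMIs per cell the EC3 shares were 2.59%, 5.93% and 3.51%, which did not separate *Angpt1*ΔNC from the controls. In EC4 it was 0.591, 0.469 and 1.61 (1.63 ± 0.27, edgeR adjusted p = 0.0104, 2.14% called higher), on 38, 27 and 98 UMIs, and the shares at equal depth were 7.06%, 6.38% and 12.3%. The keratocyte markers summed to 1.63, 1.31 and 1.22 in EC3 and to 2.51, 2.77 and 3.85 in EC4, and the trabecular meshwork markers to 0.0323, 0.106 and 0.111 in EC3, with 1, 3 and 4 of the 5 at 0. The part of these markers was not tested. DESeq2 did not call *Ltbp4* in any single label, and male-typed cells gave the call in EC4 (1.59) and not in clusters 4 and 5, while EC3 held too few of them to fit. In the epithelium *Ltbp4* was called in cluster 4 (0.550, 0.691 and 0.827, 0.61 ± 0.17, edgeR adjusted p = 0.0063, 6.19% called higher) and cluster 5 (0.191, 0.213 and 0.406, 1.13 ± 0.20, edgeR adjusted p = 0.0439, 1.26% called higher). There the keratocyte markers were lower in *Angpt1*ΔNC, at 5.07 against 9.87 and 7.19 in cluster 4 and at 74.9 against 106 and 101 in cluster 5. SC, with 15 cells in *Angpt1*ΔNC, was not fitted, and its *Ltbp4* level of 2.59 lay above both controls.

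Of the ligands, *Tgfb1* was called higher in cluster 13 (0.664, 0.725 and 1.72, 1.44 ± 0.27, edgeR adjusted p = 9.4e-06, 2.21% called higher), in 165, 165 and 64 cells. *Tgfb2* was called lower in the melanocyte-like cluster 9 (0.133, 0.149 and 0.0697, -1.50 ± 0.44, edgeR adjusted p = 0.0098, 6.34% called lower) and in the smooth muscle-like cluster 21 (1.65, 1.44 and 0.727, -1.0 ± 0.31, edgeR adjusted p = 0.0223, 3.73% called lower). The call in cluster 9 rests on few counts, with 50, 66 and 10 UMIs in 711, 799 and 292 cells. *Tgfb1* in EC3, at 5.02 against 8.24 and 8.07, came close (-0.54 ± 0.18, edgeR adjusted p = 0.057). In male-typed cells neither ligand was called in these clusters (*Tgfb1* 0.95, edgeR adjusted p = 0.534, in cluster 13, and *Tgfb2* -0.62, 0.458, in cluster 21 and -1.95, 0.472, in cluster 9), and DESeq2 called none of the 3. At equal depth of 2000 UMIs per cell, 73.3% and 72.9% of EC3 cells of the controls and 71.9% of *Angpt1*ΔNC had a *Tgfb1* UMI.

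Other genes of the pathway, a list of 42, were read in the same class fits. In stromal cells 4 of 41 tested were called (8.97% of all genes), all lower: *Smad2*, a signal transducer (log2 fold change -0.65 ± 0.16), *Zfyve9*, which brings SMADs to the receptor (-0.88 ± 0.15), *Skil*, a repressor of SMADs (-0.69 ± 0.16), and the target *Junb* (-0.88 ± 0.15). The median over the list was -0.01, as over all genes tested. In mural cells 16 of 40 were called, 6 higher and 10 lower (16.4% of all genes), and of the 13 target genes 8 were lower and 2 higher, with a median of -0.70 against -0.05 for all genes. *Cyr61* was lower by the most (-2.43 ± 0.17, edgeR adjusted p = 5.5e-08), *Ctgf* (-1.22 ± 0.14) and the contractile genes *Acta2* (-0.74 ± 0.13) and *Tagln* (-0.68 ± 0.13) were lower as well, and the protease inhibitor *Timp1* was higher (1.49 ± 0.14). *Lrrc32*, which holds latent TGF-beta at the cell surface, was higher in mural cells (1.25 ± 0.15), as were *Eng*, the co-receptor endoglin (0.95 ± 0.16), *Bambi*, *Fn1* and *Fbn1*. *Id1*, *Col1a1*, *Tgfbi*, *Emilin1* and *Skil* were lower too. These sums carry the same change in the share of cluster 19.

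In endothelial cells 13 of 39 pathway genes were called, 9 higher and 4 lower (12.9% of all genes). *Postn*, a matrix protein (-2.36 ± 0.30, edgeR adjusted p = 2.3e-07), *Emilin1* (-1.56 ± 0.38) and *Ctgf* (-0.77 ± 0.19) were among the lower genes. SC cells were 15.6% and 19.3% of the endothelial cells in the controls and 7.18% in *Angpt1*ΔNC, and the part of that shift in these values was not tested. *Smad7*, the inhibitory SMAD (0.74 ± 0.15), *Id1* (0.93 ± 0.15), the receptor *Acvr1* (0.77 ± 0.19) and the integrin subunit *Itgav* (0.68 ± 0.17) were higher, and so were *Furin*, *Tgif1*, *Cyr61*, *Col1a2* and *Col1a1* (1.98 ± 0.25). The last is a stromal gene at 12.4 and 13.9 CPM in the controls and 52.1 in *Angpt1*ΔNC. In the epithelium 3 of 40 were called (5.72% of all genes): *Itgb6*, the epithelial integrin that activates TGF-beta (0.76 ± 0.15, edgeR adjusted p = 0.0257), and *Smad3* (0.98 ± 0.15) were higher and *Cyr61* lower (-2.40 ± 0.20). In immune cells 1 of 38 was called, and it was lower (4.19% of all genes). *Emilin1* (-1.13 ± 0.90), *Thbs1* (-0.86 ± 0.49) and *Postn* (0.77 ± 0.74) were not called there. In cluster 17 none of 40 was called (0.288% of all genes), and *Cyr61* (-2.12 ± 0.35), *Acta2* (-1.18 ± 0.36) and *Lrrc32* (1.00 ± 0.19) had the largest values.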

How the data were processed

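Single cells of dissected limbal and angle tissue were counted on the 10x platform in 2 control libraries and 1 *Angpt1*ΔNC library. The deposited counts are raw UMI counts per gene and cell made by the authors with Cell Ranger (version 2.1.1 in the submitters' notes, 3.0.2 in the matrix headers) on mm10, with the authors' quality filters, doublet removal and Seurat 3.1.3 cluster labels taken as given. The authors' integrated natural log values were not used. The level of a gene is its UMIs per 10,000 UMIs of a cell, averaged over cells. Class sums were tested with edgeR 4.0.16 (R 4.3.3; TMM factors, filterByExpr, quasi-likelihood, Benjamini-Hochberg over all genes, threshold 0.05). DESeq2 1.42.0 was an alternative, and both tools were tested on simulated data. Tables were made with Python 3.11.15. P-values rest on the spread between 2 pooled control libraries, which both tools moderate with the spread of other genes. Named pathway genes are those called in a class and, where fewer than 3 were called, the 3 with the largest fold change. The genes and lists were chosen with earlier results of these data known. 1 gene of the pathway list is counted and not reported by name here.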

Additional observations from a re-analysis of the deposited data

Results flagged for a closer look

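The genotype effect of 3 genes differed between a class and the stromal class in edgeR's test of the class by genotype term. For *Ltbp1* the difference of the log2 fold changes was -1.77 (SE 0.38, edgeR adjusted p = 0.0173) in the endothelial class, -1.56 (SE 0.23, edgeR adjusted p = 0.0014) in the mural class and -2.09 (SE 0.23, edgeR adjusted p = 0.00027) in cluster 17. For *Ltbp4* it was 1.42 (SE 0.22, edgeR adjusted p = 0.0019) in the endothelial class and 1.22 (SE 0.20, edgeR adjusted p = 0.002) in the epithelial class. For *Tgfbr1* it was -0.61 (SE 0.16, edgeR adjusted p = 0.0432) in the epithelial class. All rest on 1 *Angpt1*ΔNC library. The mural value carries the change in the share of cluster 19, and the stromal, endothelial and epithelial classes changed in make-up as well. With equal weight for each label, the *Ltbp1* and *Ltbp4* calls in those 3 classes were lost, as given above.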

How the results depend on the processing

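The number of genes called depended on the tool. With DESeq2 it was 637 in the stromal, 238 in the endothelial, 439 in the epithelial, 536 in the mural and 82 in the immune class and 179 in cluster 17, against 1251, 1250, 706, 1898, 436 and 33 with edgeR. With no filter on low counts it was 2441 stromal, 1814 epithelial, 886 immune and 13 in cluster 17, with relative log expression factors 33 immune and 15 in cluster 17, in male-typed cells 465 epithelial and 443 in cluster 17, and with equal weight for each label 0 endothelial and 1193 mural. Of the 10 genes described, DESeq2 called 1 in the endothelial class, 0 in the mural class and 1 in cluster 17. Equal weight left 0 in the stromal, endothelial and epithelial classes, no filter gave 4 epithelial, and male-typed cells gave 2 stromal, 1 endothelial, 2 mural and 1 in cluster 17. Over single labels DESeq2 called 3 pairs and male-typed cells 12, against 19. DESeq2 shared 2 of the 19 and male-typed cells 7 of the 18 fitted, with the same sign in all pairs fitted.

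The sign turned in these cases. With equal weight *Tgfb2* was 0.13 in the endothelial class and *Ltbp1* 0.059 in the mural class. In single labels *Ltbp1* was 0.21 in cluster 19, -0.42 in TM5 and -0.42 in TM6, *Ltbp4* was -0.28 in cluster 20, and *Tgfbr3* was -0.077 in TM4, -0.21 in TM5, -0.41 in TM6, -1.09 in TM7, -0.29 in TM8 and -0.91 in TM9. The cause was not tested. No paired analysis was possible because the labels match no control library to the *Angpt1*ΔNC library. With 1 *Angpt1*ΔNC library and 1 residual degree of freedom, pool, sex and genotype are not separated, and SC (15 cells) and LEC (12 cells) were too few in *Angpt1*ΔNC to fit alone.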
